A study of Mus musculus with 15 samples.

Results

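Pitx3, Lmx1a, Lmx1b, Foxa1, Foxa2 and En1, transcription factors that make and maintain midbrain dopamine neurons, were followed across 15 libraries of mouse brain RNA. They were chosen by symbol, and all 6 were found among the 45777 gene symbols of the count tables. All 6 also passed the filter on low counts, which left 21821 genes for testing. The series asked what an inhibitor of Bruton tyrosine kinase (BTK), a signalling enzyme of B cells and microglia, does to brain transcripts after MPTP, a toxin taken up by dopamine neurons. Its title names Nurr1, the nuclear receptor encoded by Nr4a2. Every group had 7 days of acclimation, and the labels give each a time of 6 weeks. After acclimation, control mice ate a normal diet for 5 weeks. The MPTP group received MPTP at 20 mg/kg/day for 1 week, followed by 4 weeks of diet and no drug. The other 3 groups received the same MPTP and then a drug for 4 weeks. The levodopa group received this dopamine precursor at 2 mg/kg/day, by a route that the labels give both as oral and as intraperitoneal. The low-dose group received the inhibitor at 1 µg/kg/day, also labelled 25 pM, and the high-dose group at 2 µg/kg/day, also labelled 50 pM. Each group had 3 libraries, while the protocol lists 8 mice per group. Whether libraries came from different mice is not stated, so the tests see the spread among libraries, part or all of which may be technical.

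In the embryo, Foxa1 and Foxa2 open chromatin in the floor plate of the midbrain, and Lmx1a and Lmx1b direct its progenitors towards the dopamine fate. En1, a homeobox factor of the midbrain and anterior hindbrain, and Pitx3, a paired-type homeobox factor whose brain expression is largely limited to midbrain dopamine neurons, act later and support survival of these cells. The adult neurons keep expressing these factors together with Nr4a2, and some of their targets make, load and take up dopamine: Th (tyrosine hydroxylase), Ddc (the decarboxylase), Slc18a2 (the vesicular transporter) and Slc6a3 (the dopamine transporter).

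The tissue was labelled brain, with no region, and each library held between 58149722 and 68257095 counted reads. The 6 inhibitor libraries held 58149722 to 61998459 and the other 9 held 63314658 to 68257095. In bulk tissue, fewer cells of a type and less RNA per cell cannot be told apart. Libraries of the same group differed in markers of brain regions. The 12 cerebellum markers summed to 8582 CPM (read counts scaled to library size, with TMM as a correction for composition) in control 2 and 7112 CPM in levodopa 2, and to between 164 and 372 CPM in the other 13 libraries. Slc6a3, which defines dopamine neurons, had 0 reads in control 2 and 8 in levodopa 2, but also only 36, 77 and 55 in low-dose 1, low-dose 3 and high-dose 1. RNA of this dopamine neuron marker was thus plentiful in some libraries and near 0 in others. The files of the 6 inhibitor libraries differ from the other 9 in empty trailing columns and in total reads. Any difference in handling therefore cannot be told apart from the inhibitor.

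The promoter windows of 3 of these genes are printed because they show the letters that a search of 6 motifs found. RefSeq windows (GRCm38.p6) run from 250 bases before to 50 bases after a transcription start, and all 6 genes matched a window. Foxa2 had 3 windows. The first is the Pitx3 window at chr19:46148276-46148575, minus strand, with the 5 matches to the GC box GGGCGG (either strand) in capitals. The second is the Foxa1 window at chr12:57546062-57546361, minus strand, whose start lies inside the annotated gene, with the forkhead motif TGTTTAC (here on the opposite strand) in capitals. The third is the En1 window at chr1:120602237-120602536, plus strand, with both matches to the E-box CACGTG in capitals.
Pitx3: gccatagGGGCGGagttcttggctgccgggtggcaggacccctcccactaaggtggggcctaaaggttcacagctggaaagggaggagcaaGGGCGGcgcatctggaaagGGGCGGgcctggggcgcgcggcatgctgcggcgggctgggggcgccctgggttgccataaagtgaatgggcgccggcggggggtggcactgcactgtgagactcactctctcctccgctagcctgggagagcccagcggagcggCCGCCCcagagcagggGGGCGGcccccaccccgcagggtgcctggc
Foxa1: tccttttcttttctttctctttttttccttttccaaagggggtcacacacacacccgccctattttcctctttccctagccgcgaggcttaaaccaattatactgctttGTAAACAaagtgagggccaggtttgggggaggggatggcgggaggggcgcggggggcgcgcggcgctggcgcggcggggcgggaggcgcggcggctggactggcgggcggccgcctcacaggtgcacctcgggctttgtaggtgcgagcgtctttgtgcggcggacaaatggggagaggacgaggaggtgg
En1: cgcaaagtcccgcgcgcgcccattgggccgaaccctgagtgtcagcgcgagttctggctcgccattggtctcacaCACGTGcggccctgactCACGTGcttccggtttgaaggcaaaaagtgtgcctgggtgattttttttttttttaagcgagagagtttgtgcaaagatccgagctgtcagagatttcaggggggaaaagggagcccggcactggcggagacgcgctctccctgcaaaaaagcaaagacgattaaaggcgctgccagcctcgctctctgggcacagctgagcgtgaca

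The GC box was found in 6 of the 8 windows of these genes and in 35.7% of all 32851 windows of this length. It was not found in the Lmx1b and En1 windows. The forkhead motif was found in 1 of the 8 windows, that of Foxa1, and in 3.65% of all windows. The E-box was found in 1 of the 8, that of En1, and in 7.15% of all windows. The homeodomain motif TAATTA, the bicoid-type motif TAATCC and the Nurr1-type motif AAAGGTCA, each searched on both strands, had no match in the 8 windows, against 5.29%, 7.06% and 1.51% of all windows. The windows printed held 20 CpG in Pitx3, 26 in Foxa1 and 23 in En1, where the median window held 7. Of all windows, 73.5%, 83.1% and 78.5% held fewer than these, respectively. The windows not printed held 12 in Lmx1a, 24 in Lmx1b and 12, 23 and 13 in Foxa2.

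All 6 genes were rare transcripts. Scaled to transcript length, En1 was highest at a mean of 1.51 CPM per kilobase of exon over the 15 libraries. Foxa1 (0.509), Lmx1b (0.462) and Lmx1a (0.449) lay close together, followed by Foxa2 (0.344) and Pitx3 (0.223). Levels varied far more between libraries than those of most genes. The coefficient of variation of CPM ran from 63.3% for Lmx1a to 113% for Foxa2, against a median of 28.4% over all genes tested. The MPTP group had the highest mean and the low-dose group the lowest mean for each of the 6 genes. Levodopa was second for all but Pitx3, and the order of the control and high-dose means differed between genes.

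Foxa1 (chromosome 12, 57540628 to 57548029, minus strand) encodes a forkhead factor of the floor plate. The controls had 32, 0 and 111 reads, in the order of libraries 1, 2 and 3 used throughout, against 252, 339 and 169 in the MPTP libraries. It had 205, 0 and 251 reads in the levodopa libraries, 2, 76 and 13 in the low-dose libraries, and 25, 53 and 158 in the high-dose libraries. Every MPTP library was thus above every control and every low-dose library, while levodopa 2 and control 2, both rich in cerebellum markers, had no read. A count of 0 allows up to 3 reads, which is 0.0493 CPM in control 2 and 0.0483 CPM in levodopa 2, for counting error only. Group means were 3.72 ± 1.23 CPM in MPTP, 2.22 ± 1.95 in levodopa, 1.32 ± 1.19 in high-dose, 0.708 ± 0.849 in control and 0.498 ± 0.644 in low-dose libraries (SD, n = 3 each). Neighbours in this order lay within their spread of each other, except that MPTP stood clear of the control, low-dose and all but the highest of the high-dose libraries.

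Foxa2 (chromosome 2, 148042877 to 148046969, minus strand) encodes the close relative of Foxa1 that the floor plate needs first. It had 4, 0 and 87 reads in controls, 107, 123 and 96 in MPTP, and 213, 0 and 83 in levodopa libraries 1, 2 and 3. It had 0, 25 and 0 reads in low-dose and 0, 23 and 57 in high-dose libraries. The 3 MPTP libraries were the most even of any group, at 1.6 ± 0.189 CPM (SD, n = 3). The levodopa libraries spread from none to the highest count of the series, at 1.44 ± 1.58 CPM. Controls (0.451 ± 0.729 CPM), high-dose (0.448 ± 0.483 CPM) and low-dose libraries (0.135 ± 0.234 CPM) overlapped one another.

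Lmx1a (chromosome 1, 167688230 to 167848741, plus strand) encodes the LIM homeobox factor that starts the dopamine programme, and it is also active in the roof plate and choroid plexus. It had 37, 113 and 102 reads in controls, 193, 263 and 95 in MPTP, and 81, 60 and 200 in levodopa libraries. It had 18, 59 and 58 reads in low-dose and 58, 75 and 79 in high-dose libraries. Lmx1a was the steadiest of the 6 and, unlike Foxa1, Foxa2 and Pitx3, was read in both libraries rich in cerebellum markers. Means were 2.7 ± 1.22 CPM in MPTP, 1.69 ± 1.06 in levodopa, 1.31 ± 0.678 in control, 1.18 ± 0.203 in high-dose and 0.759 ± 0.396 in low-dose libraries. The groups between MPTP and low-dose overlapped. The 11 choroid plexus markers, Lmx1a among them, summed to 291 to 444 CPM in MPTP, 1313 to 2049 CPM in low-dose and 660 to 2075 CPM in high-dose libraries. Most of the MPTP sum was Enpp2, at 239 to 389 CPM. Ttr, the other abundant gene of that list, was at 1.2 to 7.64 CPM in MPTP, 846 to 1330 CPM in low-dose and 258 to 1414 CPM in high-dose libraries. Mean Lmx1a was lowest in the inhibitor groups, in which the list was higher than in MPTP. The part of choroid plexus in the level of Lmx1a was not tested.

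Lmx1b (chromosome 2, 33560965 to 33641208, minus strand) encodes the partner of Lmx1a, which serotonin neurons of the raphe also require. It had 28, 19 and 164 reads in controls, 297, 367 and 279 in MPTP, and 443, 27 and 294 in levodopa libraries. It had 12, 79 and 9 reads in low-dose and 49, 74 and 114 in high-dose libraries. No control or inhibitor library reached the lowest MPTP library. Means were 4.62 ± 0.659 CPM in MPTP, 3.73 ± 3.07 in levodopa, 1.32 ± 0.565 in high-dose, 1.05 ± 1.2 in control and 0.548 ± 0.637 in low-dose libraries (SD, n = 3 each). The levodopa group held both the highest count of the series and, in levodopa 2, a count in the control range. An overlapping gene model on the opposite strand, Gm38011, is not listed in the files.

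En1 (chromosome 1, 120602487 to 120607991, plus strand) encodes the homeobox factor Engrailed 1 of the midbrain and anterior hindbrain. It had 28, 4 and 635 reads in controls, 241, 490 and 860 in MPTP, and 713, 291 and 214 in levodopa libraries. It had 0, 156 and 9 reads in low-dose and 4, 46 and 258 in high-dose libraries. Control 3 had far more reads than either other control, and low-dose 2 and high-dose 3 stood above their groups in the same way. Means were 7.83 ± 4.66 CPM in MPTP, 6.08 ± 3.87 in levodopa, 3.3 ± 5.31 in control, 1.73 ± 2.29 in high-dose and 0.897 ± 1.42 in low-dose libraries. Neighbouring groups in this order overlapped, and the low-dose group stood below MPTP and levodopa without overlap.

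Pitx3 (chromosome 19, 46135281 to 46148325, minus strand) is the factor most limited to dopamine neurons and had the fewest reads. It had 4, 0 and 37 reads in controls, 42, 59 and 21 in MPTP, and 40, 0 and 29 in levodopa libraries. It had 0, 27 and 8 reads in low-dose and 0, 16 and 51 in high-dose libraries. Every group but MPTP held a library with no read, and all 5 groups overlapped. Means were 0.597 ± 0.276 CPM in MPTP, 0.375 ± 0.439 in high-dose, 0.336 ± 0.302 in levodopa, 0.203 ± 0.302 in control and 0.193 ± 0.224 in low-dose libraries. Elovl3, which overlaps Pitx3 on the opposite strand, had 1 read in control 3, 12 in levodopa 1, 8 in MPTP 3 and 0 elsewhere.

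**Figure D1:**
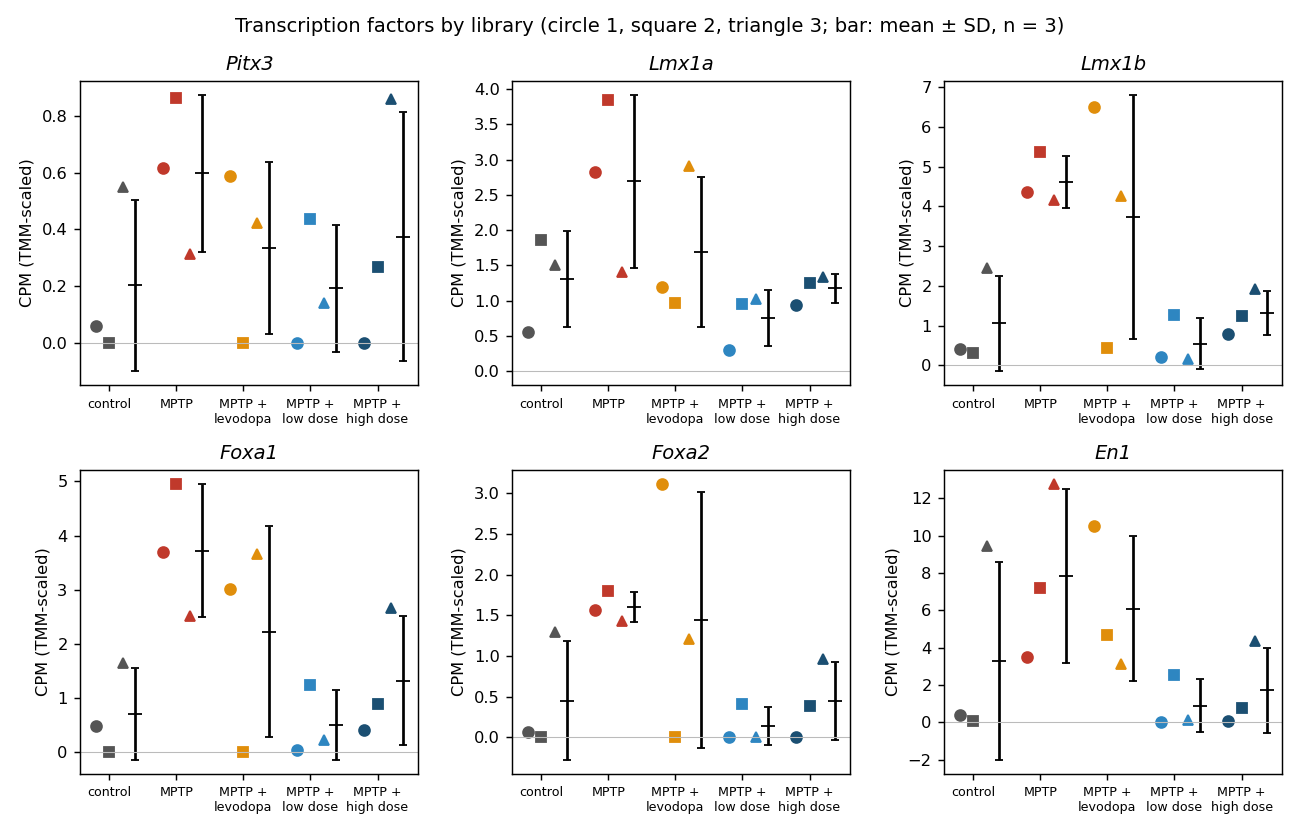
Level of each transcription factor in CPM (TMM-scaled, linear axes that differ between panels) in the 15 libraries, with symbols for libraries 1, 2 and 3 and bars for the mean ± SD of each group. Control 3, low-dose 2 and high-dose 3 have the highest En1, Foxa1, Foxa2, Lmx1b and Pitx3 of their groups, and levodopa 2 has no Foxa1, Foxa2 or Pitx3 reads.

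MPTP was compared with the controls to ask what the toxin leaves in the brain after the 4 weeks of diet that followed it. Levels of all 6 genes were higher in MPTP than in control means, and no gene passed the test. In Lmx1b, Foxa1 and Foxa2 the 3 MPTP libraries lay above the 3 controls without overlap, a pattern that 6.83% of all genes tested shared. The log2 fold changes were 2.39 for Foxa1 (SE 1.53, adjusted p = 0.717), 2.13 for Lmx1b (SE 1.00, adjusted p = 0.717) and 1.82 for Foxa2 (SE 1.75, adjusted p = 0.758) in edgeR's quasi-likelihood test with Benjamini-Hochberg adjustment. They were 1.54 for Pitx3, 1.24 for En1 and 1.05 for Lmx1a, with adjusted p from 0.717 to 0.819. The median over the 6 was 1.68, against -0.01 over all genes. With edgeR 0 of the 6 passed, as did 0% of all genes; 0 of the 6 had an unadjusted p under 0.05, against 6.62% of all genes, and DESeq2 called 0 of the 6 and 0.22% of genes. The controls themselves spanned most of the difference, since control 3 had 16.9 CPM summed over the 6 genes against 1.97 and 2.23 CPM in controls 1 and 2 and 16.6 to 24 CPM in MPTP. The log2 fold change of En1 ran from 0.68 without control 2 to 4.97 without control 3, and that of Pitx3 from 0.97 to 4.19 without the same libraries. Without control 3, those of Foxa1 and Lmx1b went to 3.92 and 3.64, and that of Foxa2 to 5.60, which then rested on 4 reads in the controls. Cerebellum markers moved the other way (12 of 12 log2 fold changes below 0, median -3.79), and their part in the result was not tested.

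The levodopa group was compared with the MPTP group, whose 3 libraries also serve in the inhibitor comparisons and in the comparison against controls. No factor passed the test, and every group pair overlapped. Log2 fold changes were -0.82 for Pitx3, -0.74 for Foxa1, -0.68 for Lmx1a, -0.36 for En1, -0.31 for Lmx1b and -0.14 for Foxa2, with SE from 0.57 to 1.67 and edgeR adjusted p from 0.954 to 0.993. The median was -0.52, against 0.00 over all genes. With edgeR 0 of the 6 passed, as did 0% of all genes. At an unadjusted p under 0.05 there were 0 of the 6 and 2.96% of genes, and DESeq2 called 0 of the 6 and 0.00607% of genes. Lower without overlap were 0 of the 6 and 4.65% of all genes. Levodopa 2, rich in cerebellum markers, held the lowest count of each factor but En1 in its group. Without it, the log2 fold changes of Lmx1b and Foxa2 turned to 0.21 and 0.43, and without MPTP 3 that of En1 turned to 0.19. In levodopa 1, Lmx1b and Foxa2 exceeded every MPTP library, while Lmx1a, at 81 reads, was below all 3.

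Low-dose libraries were set against the MPTP libraries, which asks how the inhibitor changes the toxin-exposed brain. Lmx1a, Lmx1b, Foxa1, Foxa2 and En1 were lower in all 3 low-dose libraries than in all 3 MPTP libraries, whereas Pitx3 overlapped. Lower levels without overlap were common here, in 19.8% of all genes tested. With edgeR, 0 of the 6 passed, against 8.53% of all genes called in either direction. At an unadjusted p under 0.05, 2 of the 6 were lower (Lmx1a and Lmx1b), against 12.1% of all genes. Lmx1b had a log2 fold change of -3.07 (SE 1.04, adjusted p = 0.0869) and Lmx1a of -1.83 (SE 0.59, adjusted p = 0.0727). Foxa2 (-3.52, SE 1.94), En1 (-3.12, SE 1.77) and Foxa1 (-2.89, SE 1.57) had wider errors, with edgeR adjusted p from 0.269 to 0.289. Pitx3 was at -1.61 (SE 1.58, adjusted p = 0.568). The median was -2.98, against -0.00 over all genes.

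The call in this comparison depended on the fit. DESeq2 called Lmx1b (adjusted p = 0.00998) and Lmx1a (adjusted p = 0.0162), while calling 14.3% of genes. A fit of only the low-dose and MPTP libraries called 4 of the 6, Foxa1, Foxa2, Lmx1b and Lmx1a, and 20.8% of genes. Without control 2 and levodopa 2 together, Foxa1, Lmx1b and Lmx1a were called, as were 23.7% of genes. Low-dose 2 held the most reads of every factor in its group: it had 156 En1 reads where low-dose 1 and 3 had 0 and 9, and 25 Foxa2 reads where they had none. Without low-dose 2 the log2 fold change of Lmx1b was -4.66 and passed (edgeR adjusted p = 0.0467), as did 5.78% of genes, and those of En1, Foxa1 and Pitx3 were -6.61, -4.81 and -3.06. Foxa2 then had no read in the group, so no fold is given. Markers of other regions moved in the same comparison. The 10 cortex and hippocampus markers summed to 855 to 1147 CPM in low-dose and 99.3 to 226 CPM in MPTP libraries, with 4 of 10 called higher and none at 0 in a whole group. The 8 thalamus markers summed to 216 to 415 CPM against 952 to 1325 CPM, with 8 of 8 log2 fold changes below 0, 0 called by edgeR, 4 at an unadjusted p under 0.05 and 3 called by DESeq2. The 6 endothelial markers summed to 115 to 164 CPM against 192 to 287 CPM, with 4 of 6 called lower, and the 10 striatum markers to 1178 to 1504 CPM against 196 to 247 CPM, with 3 of 10 called higher. Of the astrocyte markers 2 of 6 were called lower, and of the choroid plexus markers 4 of 11 higher. Their part in the lower factor levels was not tested.

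The high dose, compared with the same MPTP libraries, gave smaller differences in the same direction. Lmx1a, Lmx1b and Foxa2 were lower without overlap, against 19.4% of all genes, and 0 of the 6 passed with edgeR, against 1.97% of genes in either direction. The log2 fold changes were -1.81 for Lmx1b (SE 0.99, adjusted p = 0.359), -1.20 for Lmx1a (SE 0.58, adjusted p = 0.292) and -1.83 for Foxa2 (SE 1.76, adjusted p = 0.643). En1 (-2.18), Foxa1 (-1.50) and Pitx3 (-0.67) overlapped MPTP, with edgeR adjusted p from 0.546 to 0.867. At an unadjusted p under 0.05 there were 0 of the 6, against 18.5% of all genes, and DESeq2 called 0 of the 6 and 7.28% of genes. A fit of only these 2 groups called Lmx1b (adjusted p = 0.0136) and 17.5% of genes. High-dose 3 was near MPTP for Pitx3, at 51 reads, and for Foxa1, at 158. Without it the log2 fold change of Pitx3 went from -0.67 to -2.14 and that of En1 from -2.18 to -4.21, with neither called. The cortex and hippocampus markers summed to 305 to 922 CPM in these libraries, with 2 of 10 called higher against MPTP. The endothelial markers summed to 95 to 132 CPM, with 4 of 6 called lower and all 6 lower without overlap. The striatum markers summed to 507 to 1268 CPM, with 0 of 10 called by edgeR, 5 at an unadjusted p under 0.05 and 3 called by DESeq2, and 2 of 11 choroid plexus markers were called higher. Their part in the factor levels was not tested.

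Between the inhibitor doses no factor differed beyond the spread. High minus low log2 fold changes were 1.69 for Foxa2 (SE 1.90), 1.39 for Foxa1 (SE 1.52), 1.26 for Lmx1b (SE 1.00), 0.94 for Pitx3 (SE 1.59), 0.94 for En1 (SE 1.67) and 0.63 for Lmx1a (SE 0.58). Each had an edgeR adjusted p of 1, and the dose groups overlapped for all 6. Higher without overlap were 0 of the 6 and 5.23% of genes. With edgeR 0 of the 6 and 0% of genes were called; at an unadjusted p under 0.05 these were 0 of the 6 and 2.23%, and DESeq2 called 0 of the 6 and 0.00607% of genes. Without high-dose 3 the differences of Pitx3 and En1 turned to -0.54 and -1.12. Errors of this size leave room for a large difference in either direction, so the doses are not shown to act alike.

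**Figure D2:**
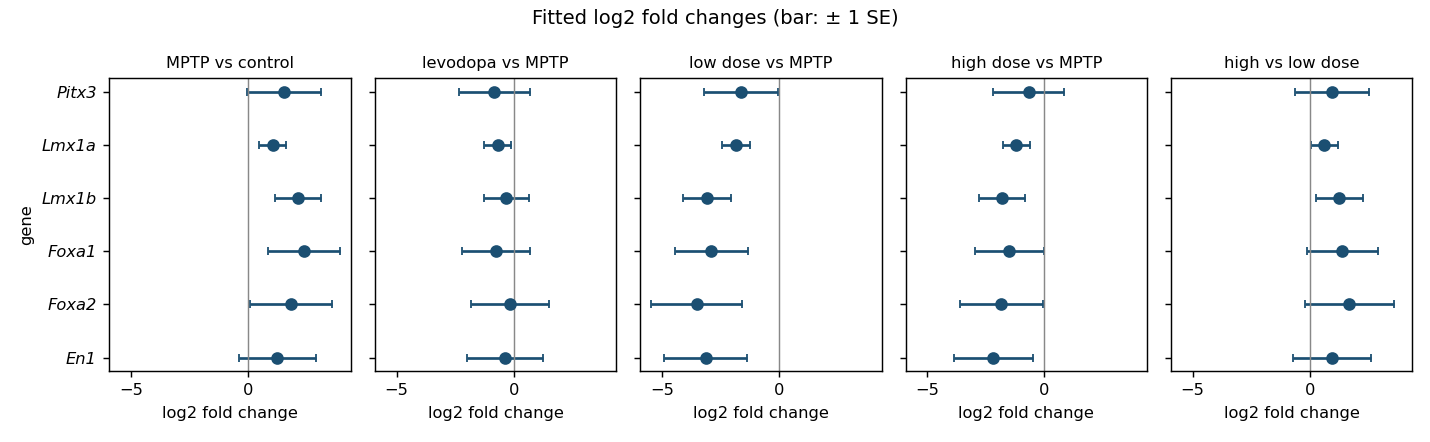
Fitted log2 fold change of the 6 transcription factors in the 5 comparisons, with bars of ± 1 SE from edgeR. Against MPTP the low-dose points lie lowest, from -1.61 for Pitx3 to -3.52 for Foxa2, and no point passes the adjusted threshold.

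Of 26 other regulators of midbrain dopamine development, 24 were tested. In the low dose against MPTP, 16 of the 24 had a log2 fold change below 0 and 8 above 0, and 6 were lower and 6 higher without overlap. Of all 21821 genes tested, 4330 were lower and 4562 higher without overlap in that comparison. With edgeR, 2 of the 24 were called there, both higher, a share close to the 8.53% of all genes called in that comparison. Bcl11a, a zinc finger factor also found in cortical neurons, rose by 1.87 on the log2 scale (SE 0.37, edgeR adjusted p = 0.0123), with 71.1 ± 13.1 CPM against 19.4 ± 6.05 in MPTP. Rspo2, a secreted enhancer of Wnt signalling, rose by 2.61 on the log2 scale (SE 0.53, edgeR adjusted p = 0.0136), with 9.7 ± 1.44 CPM against 1.58 ± 0.168. The median over the 24 was -0.19 there. It was 0.09 in MPTP against control, -0.12 with levodopa, -0.24 at the high dose and -0.08 between doses. In the other 4 comparisons edgeR called 0 of the 24. At an unadjusted p under 0.05 there were 3, 1, 6 and 0 in the order given, against 6.62%, 2.96%, 18.5% and 2.23% of all genes. DESeq2 called Bcl11a and Rspo2 higher at the high dose against MPTP (adjusted p = 0.00404 and 0.0103), while calling 7.28% of genes. Nr4a2, the gene of Nurr1, had 307, 1680 and 803 reads in controls, 1250, 2113 and 603 in MPTP, 729, 766 and 1712 in levodopa, 1104, 1082 and 1217 in low-dose and 1043, 1408 and 832 in high-dose libraries. It was thus plentiful in low-dose 1 and 3, in which Foxa2 had no read and Foxa1 had 2 and 13. Nr4a2 was also read where Slc6a3 was nearly absent: control 2, with 0 Slc6a3 reads, had 1680, and levodopa 2, with 8, had 766. Its level in these libraries therefore need not come from dopamine neurons. The log2 fold change of Nr4a2 was -0.02 at the low dose and -0.09 at the high dose against MPTP (SE 0.56 for each, edgeR adjusted p = 0.989 and 0.954).

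Of the 18 effector genes of dopamine neurons, 12 had a log2 fold change below 0 and 6 above 0 at the low dose against MPTP, with a median of -1.29. Without overlap, 10 were lower and 4 higher, against 4330 and 4562 of the 21821 genes tested. Th (-1.98, SE 0.97, edgeR adjusted p = 0.219) and Ddc (-1.69, SE 0.89, adjusted p = 0.254) were lower and not called. With edgeR, 2 of the 18 were called lower and 1 higher, where 8.53% of all genes were called. Those called lower were Ret, the receptor for glial-derived neurotrophic factors (83.3 ± 18 to 18.1 ± 10.4 CPM, edgeR adjusted p = 0.0151), and Aldh1a1, a retinaldehyde dehydrogenase of ventral substantia nigra neurons (209 ± 59 to 66.3 ± 39 CPM, adjusted p = 0.0338). The gene called higher was Cck, a neuropeptide gene that many cortical neurons also express (47.7 ± 6.13 to 148 ± 54.9 CPM, edgeR adjusted p = 0.0296). Ret and Aldh1a1 were also read where Slc6a3 was not: control 2, with 0 Slc6a3 reads, had 3046 Ret and 12955 Aldh1a1 reads, and levodopa 2, with 8, had 3109 and 15655. In the other comparisons edgeR called 0 of the 18. At an unadjusted p under 0.05 there were 2, both at the high dose against MPTP, against 18.5% of all genes. DESeq2 called Ret lower at the high dose against MPTP (adjusted p = 0.033), while calling 7.28% of genes. Medians were 0.83 for MPTP against control, -0.42 for levodopa, -0.73 for the high dose against MPTP and 0.44 between doses.

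Over all 15 libraries, Foxa1, Pitx3 and Foxa2 had the highest correlations with the dopamine transporter gene. Slc6a3 had 344, 0 and 3723 reads in controls, 5360, 8236 and 3670 in MPTP, 5032, 8 and 5194 in levodopa, 36, 2900 and 77 in low-dose and 55, 1216 and 4637 in high-dose libraries. Every group but MPTP thus held at least 1 library above 1000 reads and at least 1 at or under 344. The correlation of log2 CPM with Slc6a3 over the 15 libraries was r = 0.97 (rho = 0.98) for Foxa1, r = 0.94 (rho = 0.96) for Pitx3, r = 0.93 (rho = 0.88) for Foxa2, r = 0.84 (rho = 0.86) for Lmx1b, r = 0.73 (rho = 0.62) for En1 and r = 0.45 (rho = 0.63) for Lmx1a. The points share library preparation, depth and regional makeup, and the values are given as a description. Without control 2 and levodopa 2, which had the fewest Slc6a3 reads, r was 0.94 for Foxa1 and Pitx3, 0.97 for Foxa2, 0.89 for Lmx1b, 0.95 for En1 and 0.75 for Lmx1a. The rho values were then 0.97 for Foxa1, 0.95 for Pitx3, 0.86 for Foxa2, 0.87 for Lmx1b and Lmx1a, and 0.75 for En1. Within the 9 libraries given no inhibitor, r was 0.99 for Foxa1 and 0.96 for Pitx3, and within the 6 inhibitor libraries 0.90 and 0.93, below Foxa2 (0.99) and En1 (0.98). In the 9 libraries given no inhibitor, En1 was at r = 0.72 but rho = 0.30. Over the 9 libraries with at least 1000 Slc6a3 reads, r was 0.92 for Foxa1, 0.81 for Pitx3 and 0.62 to 0.73 for the other 4. By rho, En1 was at 0.23 in these libraries, and the other factors ran from 0.60 for Foxa2 to 0.93 for Foxa1. Over the 6 libraries with fewer Slc6a3 reads, r was 0.87 for Foxa1, 0.63 for Foxa2, 0.62 for Pitx3, 0.02 for Lmx1b, -0.05 for En1 and -0.61 for Lmx1a. With Nr4a2, the factors correlated over all 15 at r from -0.22 for En1 to 0.05 for Pitx3, apart from Lmx1a at 0.48 (rho = 0.44). Lmx1a followed Nr4a2 more closely in the 9 libraries given no inhibitor (r = 0.89, rho = 0.83), where its r with Slc6a3 was 0.38, and not in the 6 inhibitor libraries (r = -0.06).

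**Figure D3:**
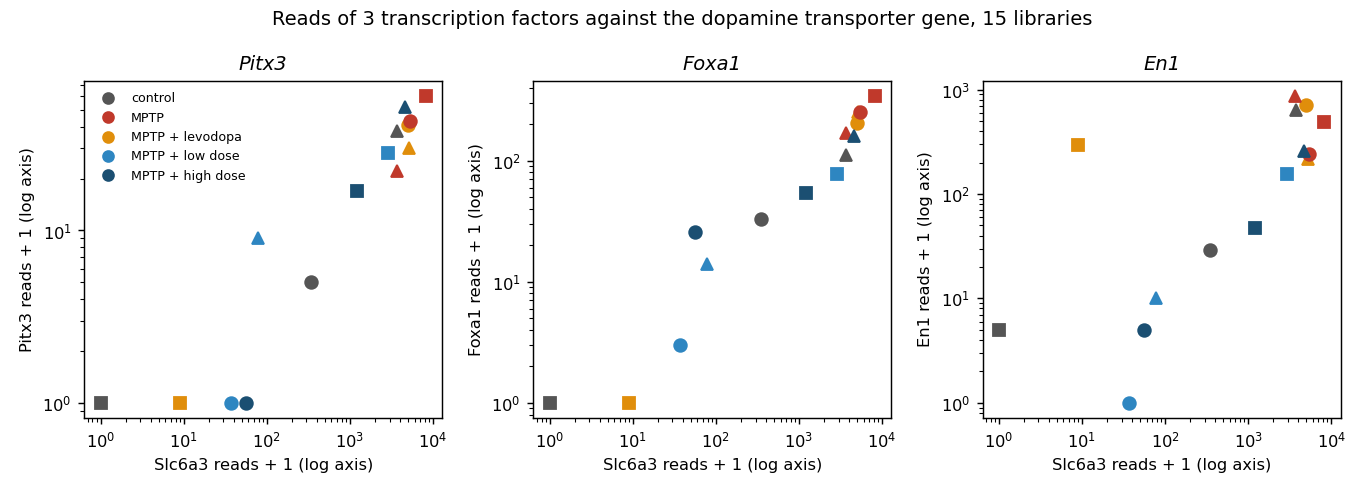
Reads of Pitx3, Foxa1 and En1 plotted against reads of Slc6a3 in the 15 libraries, each plus 1, on log axes, coloured by group. Foxa1 and Pitx3 lie close to a line with Slc6a3, while the levodopa library with 8 Slc6a3 reads has 291 En1 reads.

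Set against Slc6a3 in the same library, the factors varied over different spans. The 9 libraries with at least 1000 Slc6a3 reads were used, so that the denominator was well counted. The spans hold for these 9 only. Below the limit, Foxa1 and Slc6a3 had 32 and 344 reads in control 1, and 2 and 36 in low-dose 1. They had 13 and 77 in low-dose 3 and 25 and 55 in high-dose 1. These 4 ratios lay above those of the 9. Levodopa 2 had 0 and 8 reads, and control 2 had none of either. Foxa1 was the steadiest, from 26.2 reads per 1000 Slc6a3 reads in low-dose 2 (exact 95% interval 20.6 to 32.9) to 48.3 in levodopa 3 (42.4 to 54.9), a span of 1.84-fold. Pitx3 ran from 5.58 in levodopa 3 (3.74 to 8.03) to 13.2 in high-dose 2 (7.5 to 21.5), with overlapping intervals. Lmx1b spanned 3.58-fold, from 24.6 in high-dose 3 to 88 in levodopa 1, and Lmx1a 3.83-fold, from 16.1 in levodopa 1 to 61.7 in high-dose 2. Foxa2 spanned 4.91-fold, from 8.62 in low-dose 2 (5.57 to 12.8) to 42.3 in levodopa 1 (36.7 to 48.6). En1 spanned 6.19-fold, the widest of the 6. These exact intervals cover counting error only. Set against Th in the 8 of these libraries with at least 1000 Th reads, Foxa1 was again the narrowest at 1.84-fold and En1 the widest at 5.28-fold. Per 1000 Slc6a3 reads, MPTP 1, 2 and 3 had 47, 41.2 and 46 Foxa1 reads. Control 3, the only control with at least 1000 Slc6a3 reads, had 29.8. Control 1, below this limit at 344 Slc6a3 reads, had 32 Foxa1 reads, a higher ratio than in any MPTP library. The controls thus lay on both sides of MPTP.

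En1 relative to Slc6a3 was high in the libraries that also had the most reads of serotonin neuron genes. Per 1000 Slc6a3 reads it was 171 in control 3 (exact 95% interval 157 to 186), 234 in MPTP 3 (217 to 252) and 142 in levodopa 1 (131 to 153). In the other 6 libraries it was 37.8 to 59.5. Tph2, the enzyme that starts serotonin synthesis in the raphe, had 3048 reads in control 3, 4427 in MPTP 3 and 7484 in levodopa 1, and at most 609 in any other library. Slc6a4, the serotonin transporter gene, had 1691, 2520 and 4136 reads in those 3 and at most 381 elsewhere. The summed level of the 8 serotonin neuron markers ran from 3.38 to 117 CPM in controls, 28 to 153 in MPTP, 10.3 to 241 in levodopa, 23.6 to 35.3 in low-dose and 32.3 to 40.2 in high-dose libraries. Their defining factor gene Fev had no read in the low-dose libraries. Their part in the level of En1 was not tested. Levodopa 2, by contrast, had 291 En1 reads with 56 Tph2 reads. Over 15 libraries the correlation with Tph2 was r = 0.73 for En1 and Foxa2, 0.68 for Lmx1b, 0.63 for Pitx3, 0.61 for Foxa1 and 0.25 for Lmx1a.

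The related factors did not keep a fixed ratio. Per kilobase of exon, Foxa1 stood at 0.686 of Foxa2 in levodopa 1 and 0.909 in control 3, and at 1.25 to 2.17 in the other 7 libraries with more than 4 Foxa2 reads. Levodopa 1 was the only library with more Foxa2 than Foxa1 reads, 213 against 205. Lmx1b stood at 3.81 of Lmx1a per kilobase in levodopa 1 and 2.04 in MPTP 3, and at 0.108 in low-dose 3 and 0.117 in control 2. Low-dose 3 thus kept 58 Lmx1a reads while it had 9 of Lmx1b. Levodopa 1 and MPTP 3 are also the libraries with the most Tph2 reads. Control 3, with 3048 Tph2 reads, stood at 1.12 of Lmx1a, close to 1.07 in MPTP 1, which had 96 Tph2 reads.

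Between themselves the 6 factors correlated at r from 0.55 to 0.95 over 15 libraries, with a median of 0.80 over their 15 pairs. Lmx1b and Foxa2 were closest at 0.95, followed by Pitx3 with Foxa2 at 0.92. Every pair with Lmx1a was at 0.68 or lower. With Neurod6, a cortical and hippocampal neuron gene, r ran from -0.30 for Pitx3 to -0.59 for En1, and with Gabra6, a cerebellar granule cell gene, from -0.01 for Lmx1a to -0.71 for Foxa1. The values with Gabra6 rested on control 2 and levodopa 2: without both, r was -0.19 for Foxa1 and -0.10 for Pitx3.

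**Figure D4:**
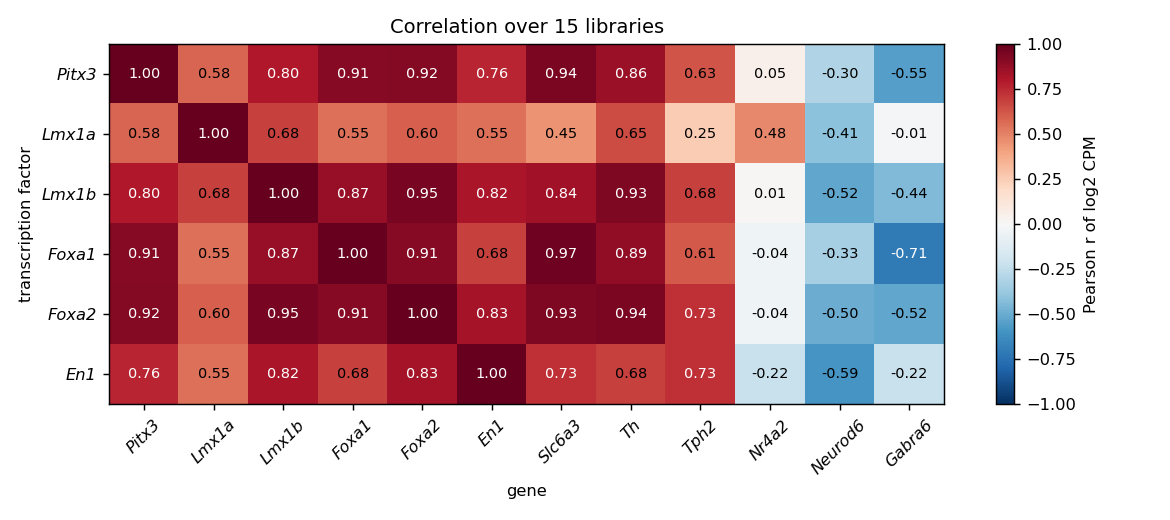
Pearson correlation of log2 CPM over the 15 libraries between the 6 transcription factors (rows) and each other, effector, marker and regulator genes (columns), on a colour scale from -1 to 1. Foxa1, Foxa2 and Pitx3 reach 0.91 or more with each other and with Slc6a3, while the Nr4a2 column runs from -0.22 to 0.48.

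The genes whose pattern was most like each factor were taken from 14011 genes of at least 1 CPM by Pearson correlation of log2 CPM over the 15 libraries. For Pitx3 these were Slc6a3 (0.938), the nicotinic receptor subunit gene Chrna6 (0.887), Ddc (0.885), the guanylate cyclase gene Gucy2c (0.885) and the CGRP precursor gene Calca (0.880). For Foxa1 they were Gucy2c (0.974), Slc6a3 (0.968), Snx22 (0.966), Ddc (0.965) and Tmed10 (0.958). Foxa2 was most like Cpq (0.949), Th (0.937), Ddc (0.928), Slc6a3 (0.926) and Insig1 (0.926). Gucy2c, a receptor that midbrain dopamine neurons also carry, had 285, 439 and 214 reads in MPTP and 45, 58 and 175 in high-dose libraries. The lists of Lmx1a, Lmx1b and En1 held none of these dopamine genes. Lmx1b nevertheless correlated with Th at r = 0.93 (rho = 0.93) over the 15 libraries. The r with Th was 0.94 for Foxa2, 0.89 for Foxa1, 0.86 for Pitx3, 0.68 for En1 and 0.65 for Lmx1a. Lmx1b was most like Gstt3 (0.964), Cpq (0.962), Ankrd34b (0.954), Scd1 (0.941) and Crtap (0.941), and Lmx1a like Ikbip (0.876), F3 (0.852), Ucp2 (0.829), Spon1 (0.813) and Epm2a (0.812). En1 was most like Endod1 (0.899), Pax5 (0.899), Cyp39a1 (0.896), Sspn (0.891) and C1ql4 (0.881). Pax5, a paired box factor of the midbrain and hindbrain boundary, had 668 reads in control 3, 886 in MPTP 3 and 759 in levodopa 1, the 3 libraries in which En1 was also highest.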

How the data were processed

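Messenger RNA of mouse brain was sequenced from TruSeq Stranded mRNA libraries, per the labels' protocols. The authors deposited raw counts of reads for each symbol, in a file for each library. The genome was GRCm38/mm10, and StringTie 2.1.3b, HISAT2 2.1.0, Trimmomatic and bcl2fastq 2.20.0 are named, per the submitters' processing notes. Annotation, strand setting and treatment of shared reads were not given in the sources used here, so counts of overlapping genes are uncertain.

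Groups and numbers came from the labels. Counts were tested with edgeR 4.0.16 (R 4.3.3): TMM, filterByExpr, 1 quasi-likelihood fit of 15 libraries without covariates, Benjamini-Hochberg adjustment over 21821 genes, threshold 0.05. SE is the fold change over the square root of F. Exon lengths came from GENCODE M21, coordinates and promoters from RefSeq (GRCm38.p6). Correlations used log2 CPM with a prior count of 2. Interval level was 95%, floor 3 reads. Within groups no libraries were duplicates (chi-square per degree of freedom 29.3 to 468). The fit was tested on simulated data. DESeq2 1.42.0, other scalings and filters, fewer samples, a replicate block and left-out libraries were alternatives.

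The 6 genes and the 16 other gene lists were chosen with earlier results of these data known. All 6 genes are named. Of the regulator and effector lists up to 6 genes each with the smallest p per comparison could be named, with Nr4a2, Th and Slc6a3; of each marker list the 1 or 2 most abundant; and for likeness the top 5. Slc6a4, Fev, Otx2, Neurod6, Gabra6, Fgf20 and Slc18a2 were named outside this rule, after their values were seen.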

Additional observations from a re-analysis of the deposited data

How the results depend on the processing

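Of the 5 counts of transcription factors called, 3 stayed at 0 under every alternative. In the low dose against MPTP the count was 0, and it became 1 with the replicate block (Lmx1a, adjusted p = 0.049, where 7.9% of all genes were called), 4 with only the 2 groups compared, 2 with DESeq2 and 3 without control 2 and levodopa 2 together. With each library left out it ran from 0 to 1. In the high dose against MPTP it became 1 with only the 2 groups compared. Counts stayed at 0 with RLE or upper-quartile scaling and without the filter. The filter of 5 CPM in 3 libraries kept En1 only.

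Directions turned in levodopa against MPTP for Lmx1b (0.21 without levodopa replicate 2, and 0.21 without control 2 and levodopa 2 together), for Foxa2 (0.43 in both of these, and 0.01 with the replicate block) and for En1 (0.61 with the replicate block and 0.19 without MPTP replicate 3). Between doses Pitx3 and En1 turned to -0.54 and -1.12 without high-dose replicate 3. With each library left out, these ran from -0.98 to 0.21 (Lmx1b), -1.40 to 0.43 (Foxa2) and -0.99 to 0.19 (En1) with levodopa, and from -0.54 to 2.42 (Pitx3) and -1.12 to 4.45 (En1) between doses. The cause was not tested. The other 374 log2 fold changes kept direction and side of the threshold, and 12 kept direction and passed it. Same-numbered libraries of compared groups correlated at -0.297 to 0.239 in their deviations, and in no comparison were all 3 above 0.1. All 3 were above 0 in MPTP against control (0.239, 0.0522 and 0.0467) and in the high dose against MPTP (0.103, 0.0194 and 0.0183). The check does not show that the numbers pair the libraries, and with 3 libraries a group it cannot exclude it. By Spearman correlation, 3 of the 5 genes most like Lmx1a and 2 of the 5 most like Foxa2 stayed within the top 50, and the others kept 4 or 5. Pitx3 and Foxa2 had 0 to 59 and 0 to 213 reads per library; no analysis at lower depth was run.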

Other observations

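The libraries rich in cerebellum markers, control 2 and levodopa 2, differed from each other in En1. Gabra6 had 39519 and 34516 reads and the cerebellar homeobox gene En2 6502 and 6418 reads in the respective libraries, while En1 had 4 and 291. Foxa1, Foxa2 and Pitx3 had 0 reads in both, Lmx1a had 113 and 60 reads, and Lmx1b had 19 and 27. Slc6a3 had 0 and 8 reads and Tph2 25 and 56.

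Otx2, a homeobox gene of the forebrain, midbrain and choroid plexus, had 921 reads in control 2 and 158 in levodopa 2, so En1 and Otx2 differed between these libraries in opposite directions. Pax5 had 17 reads in control 2 and 77 in levodopa 2, and Fgf20, a growth factor gene of dopamine neuron development, 0 and 15.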
